A study of Homo sapiens with 6 samples.

Results

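The genes described here encode the subunits of the mitochondrial respiratory chain and ATP synthase that are read from nuclear DNA, measured in 1CT and 1CT-A cells. Members are chosen by symbol. They are the NDUFA, NDUFB, NDUFC, NDUFS and NDUFV genes (with a number or AB1), SDHA to SDHD, CYC1, and every symbol that begins with UQCR, COX4, COX5, COX6, COX7, COX8 or ATP5, without pseudogenes and antisense RNAs. This gives 88 of the 24462 symbols in the data, with 38 in complex I, 4 in complex II, 10 in complex III, 17 in complex IV and 19 in complex V. The pseudogenes ATP5EP2 and UQCRBP1 match the prefixes and are left out. A few symbols share a prefix without being subunits, and they are pointed out where their values are given.

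The respiratory chain sits in the inner mitochondrial membrane. Complex I takes electrons from NADH and complex II takes them from succinate, both pass them to coenzyme Q, complex III hands them on to cytochrome c, and complex IV gives them to oxygen. Complexes I, III and IV pump protons across the membrane, and ATP synthase, also called complex V, lets them flow back and makes ATP. The complexes other than complex II are built from nuclear and mitochondrial gene products together, so colon epithelial cells, like nearly every human cell, have to match the output of both genomes.

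The 1CT cells are immortalized human colon epithelial cells (HCEC), labelled as colonic epithelial progenitor cells with the genotype WT. The 1CT-A cells are a version of 1CT in which wild type APC is depleted, labelled APC KD. Both grow in the same medium, a mix of DMEM and M199 with EGF, hydrocortisone, insulin, selenite, transferrin and serum, and neither is treated. Whether 1CT-A is 1 clone or a pool of cells, and whether the 3 libraries of a cell line come from separate cultures, is not given in the sources used here, so p-values measure the spread between these libraries, which may be technical. The comparison asks what differs in RNA between a colon epithelial cell line and the same line with less APC, the tumor suppressor that restrains Wnt signalling.

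The dataset holds 3 QuantSeq libraries of each cell line, in which reads are counted near the 3′ end of each transcript. The 1CT libraries hold 7788679 to 8452258 counts and the deeper 1CT-A libraries 11158108 to 12602988, a mean ratio of 1.43. APC itself, the targeted gene, is at 49.3, 43.8 and 46.6 CPM (counts scaled to the library total) in 1CT and at 31.5, 30.0 and 34.4 in 1CT-A (log2 fold change -0.58, SE 0.09, edgeR adjusted p = 1.76e-04), without overlap. Of 16 colon epithelial markers, 9 have at most 3 counts in every library, among them EPCAM, KRT20, VIL1, CDX1 and CDX2, and the list sums to between 41.9 and 45.5 CPM in the 1CT libraries, against 23.6 to 30.8 CPM. The 12 fibroblast and mesenchymal markers sum to 4886 to 5942 CPM and to 4432 to 4765 CPM, and 6 blood and endothelial markers to 10.99 to 14.4 CPM and to 8.57 to 10.3 CPM. Most of the defining epithelial markers are thus at or near 0 in both cell lines, apart from CLDN7, KRT18 and, in 1CT, KRT19. For KRT19 the 1CT libraries show 20, 27 and 34 counts, whereas every 1CT-A library shows 0, which allows up to 3. Within the mesenchymal list, whose sum rests mostly on VIM, COL1A1 and COL1A2, 3 genes are called higher and 6 lower, with COL3A1 at 2.37, S100A4 at -2.08 and ACTA2 at -1.32 on the log2 scale. The part of these shifts in the results below was not tested.

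Levels are given as CPM of the library total. They come from reads near the 3′ end and are not divided by transcript length. They are used to compare 1 gene between libraries and not 1 gene with another. Sums and shares over several genes are of reads, so genes with many counts weigh most. Fold changes are 1CT-A over 1CT on the log2 scale, from edgeR with TMM scaling, and a gene is called at an adjusted p under 0.05 over the 12514 genes tested. In a bulk library, fewer cells with a transcript and less of it per cell cannot be told apart.

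The respiratory chain genes as a list differ little between the cell lines. Their share of all counts is 1.42% ± 0.0241 (SD, n = 3) in 1CT and 1.49% ± 0.0294 (SD, n = 3) in 1CT-A. Of the 83 members that pass the filter on low counts, 25 are called (30.1%), against a background of 51.0% of all genes tested. Higher in 1CT-A are 14 members, where the background is 25.0%, and lower are 11, where it is 26.0%. For genes that average 10 CPM or more, as 82 of the members do, the background is 54.9% called, with 31.4% higher and 23.4% lower. The 3 libraries of 1 cell line lie fully apart from those of the other for 36 of the 83 members, against 59.7% of all genes tested.

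The differences are also small in size. The median log2 fold change of the 83 members is -0.02, beside -0.01 over all genes tested and 0.06 over those that average 10 CPM or more. For 81 of the members the 95% interval of the fold change stays within 2-fold in either direction, and for 74 within 1.5-fold. Of the 8224 genes that average 10 CPM or more, 7121 stay within 2-fold and 4654 within 1.5-fold. By the fold change itself, 1795 of those genes differ by more than 1.5-fold. Among the members only COX7A1 does. It is also the only member that differs by 2-fold with an unadjusted p under 0.01, thresholds that 13.4% of all genes tested meet. The direction split moves with the scaling, since 56% of the calls are higher with TMM, 69.0% with library size only and 34.5% with upper-quartile factors. Of the 25 called members, 12 are called under all 16 settings tried (scalings, filters, tools, a replicate block and each library left out), and the other 13 lose their call under at least 1 of them.

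**Figure D1:**
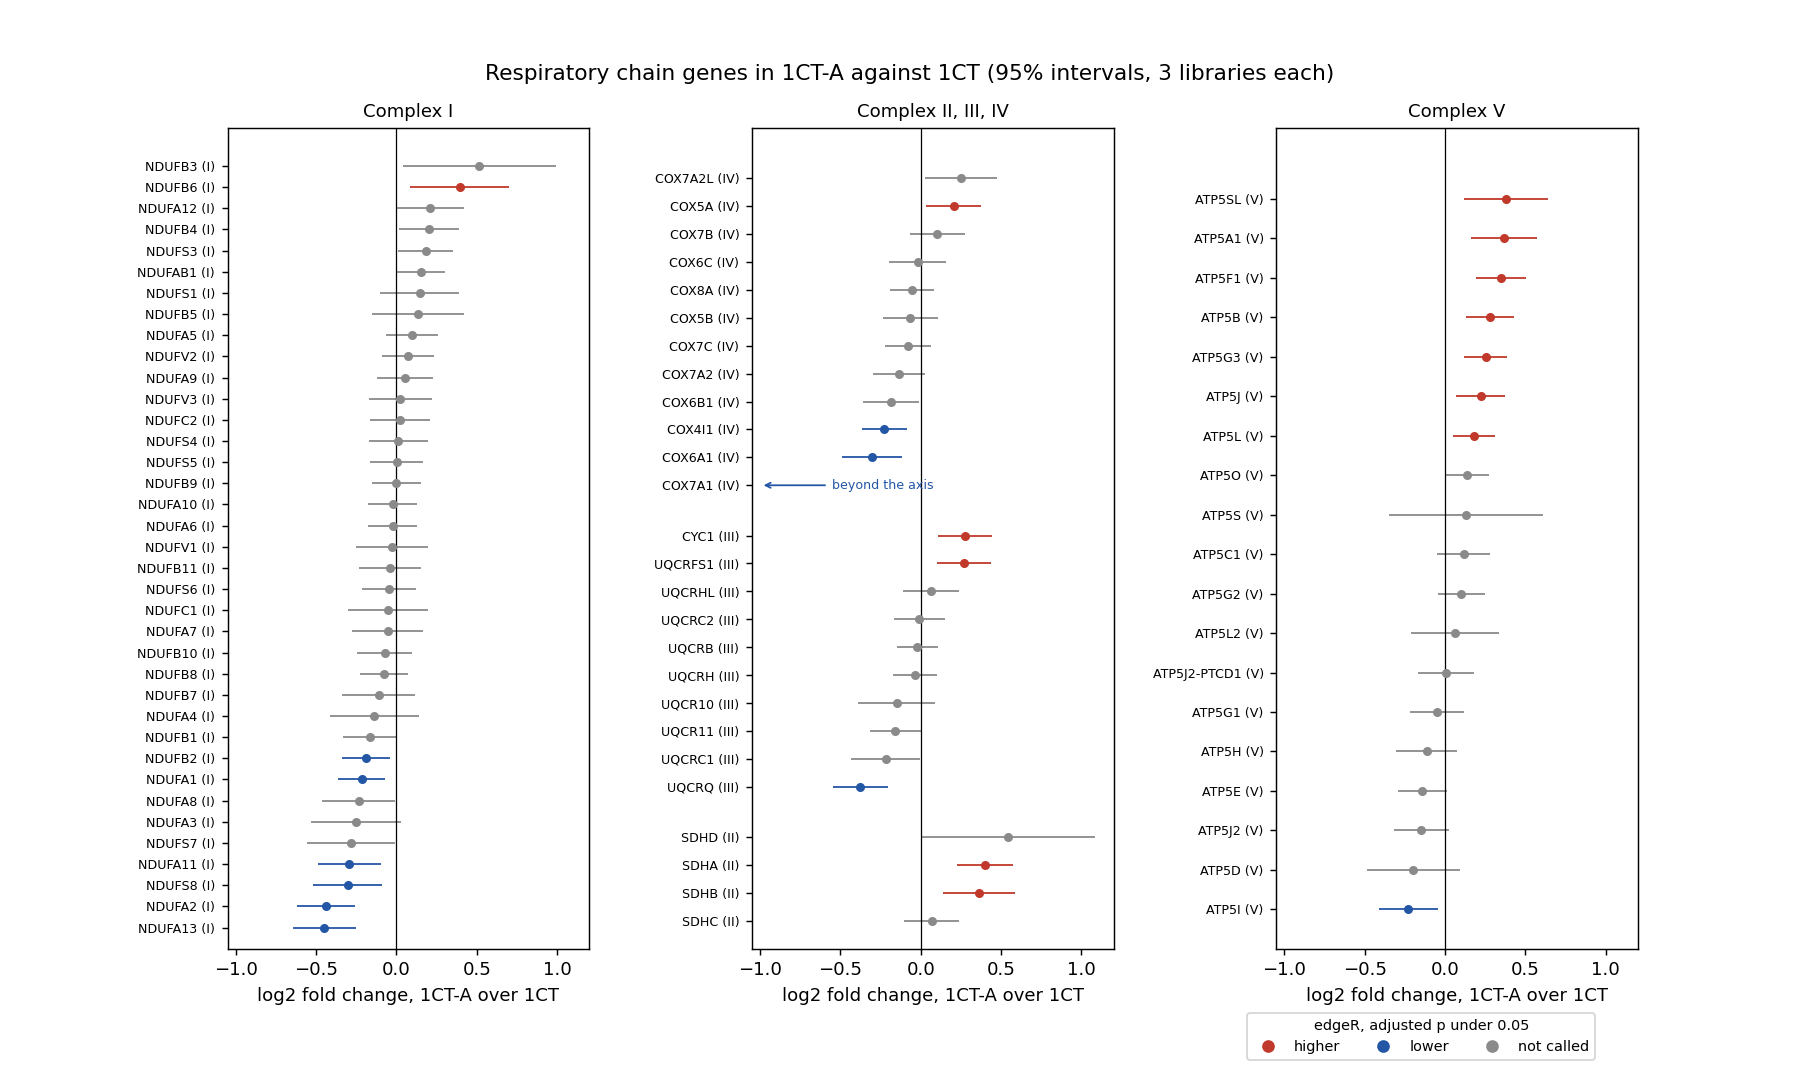
The log2 fold change of 82 of the 83 members tested (horizontal axis, 1CT-A over 1CT, with its 95% interval) is shown by complex, in red where it is called higher, in blue where it is called lower and in grey where it is not called. Most points lie within 0.5 of 0 on either side, and COX7A1, at -3.55, lies beyond the axis.

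Complex II, succinate dehydrogenase, is the smallest complex, is encoded by nuclear genes alone, and also serves the citric acid cycle. All 4 of its genes have a fold change above 0, with a median log2 fold change of 0.38. Of the 4, 2 are called higher, a count too small to set against the 51.0% of all genes tested that are called. SDHA, the flavoprotein that oxidizes succinate, is at 77.5, 67.9 and 78.6 CPM in 1CT and at 101, 102 and 101 CPM in 1CT-A. The cell lines do not overlap, and the log2 fold change is 0.40 (SE 0.08, edgeR adjusted p = 0.0012). SDHB, the iron-sulfur subunit, is at 40.0, 36.3 and 29.9 CPM against 44.1, 49.3 and 47.2 CPM, again without overlap (0.36, SE 0.10, edgeR adjusted p = 0.010). Both calls hold under all 16 settings.

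The membrane anchors of complex II are not called with all libraries. SDHC stands at 116 ± 9.28 CPM in 1CT and 124 ± 8.09 CPM in 1CT-A (SD, n = 3; log2 fold change 0.07, SE 0.08). SDHD, the lowest of the 4 genes, is at 11.9, 12.6 and 5.52 CPM against 10.8, 18.4 and 15.9 CPM, so the cell lines overlap and 1CT replicate 3 is far below the other libraries. Its log2 fold change is 0.54 (SE 0.25, edgeR adjusted p = 0.085), with an interval from 0.00 to 1.08, and it is called higher without a filter (0.59), without 1CT replicate 2 (0.74) and without 1CT-A replicate 1 (0.73). SDHA has near copies in the data, and the pseudogene SDHAP3 is counted at 22.6% of the reads of SDHA and SDHAP3 in 1CT and at 22.0% in 1CT-A. SDHAP2 is at 6.62% of its pair with SDHA and then 3.61%, and SDHAP1 at 3.15% and then 1.54%, so some reads of SDHA may be divided between them.

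The promoters of SDHA and SDHB are shown because both genes are called higher. The 250 bases before the start are from RefSeq on GRCh38.p14, and capitals mark matches to the motifs described further on. SDHA lies on the plus strand of chromosome 5, with the window at chr5:218070-218319, and SDHB on the minus strand of chromosome 1, at chr1:17054033-17054282.
SDHA: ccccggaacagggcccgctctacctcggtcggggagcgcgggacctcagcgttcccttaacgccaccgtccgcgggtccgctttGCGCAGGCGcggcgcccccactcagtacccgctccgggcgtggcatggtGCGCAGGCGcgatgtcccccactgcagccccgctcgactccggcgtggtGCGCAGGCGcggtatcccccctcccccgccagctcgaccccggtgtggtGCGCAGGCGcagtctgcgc
SDHB: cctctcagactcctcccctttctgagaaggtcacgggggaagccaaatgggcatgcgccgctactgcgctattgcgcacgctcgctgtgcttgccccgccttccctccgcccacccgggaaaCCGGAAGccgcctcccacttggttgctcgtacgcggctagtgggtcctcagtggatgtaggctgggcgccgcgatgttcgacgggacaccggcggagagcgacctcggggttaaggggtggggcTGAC
In SDHA the same 9 letters, GCGCAGGCG, stand 4 times, at -166, -117, -68 and -19 from the start, exactly 49 bases apart. They match only GCGCANGCG, a form added to the search after the sequences were seen. The SDHA window holds none of the other motifs searched, so it shares no motif with that of SDHB. SDHB holds CCGGAAG at -128 and a cAMP response element, TGACGTCA, that begins at -4 and of which the window shows only the first 4 letters, and AAGATGGCG follows at 11, past the printed bases.

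Complex I is the largest complex, and it has the smallest share of calls. Of its 38 genes 2 are higher and 6 are lower (21.1% called, beside 51.0% of all genes tested). The median log2 fold change is -0.02. The split is 6 higher and 5 lower with library size only, and 1 and 9 with upper-quartile factors. Core subunits carry the flavin, the iron-sulfur clusters and the coenzyme Q site, and accessory subunits surround them. This split by role was set after the values were seen.

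NDUFS8, a core subunit with iron-sulfur clusters, is at 65.4, 59.8 and 74.5 CPM in 1CT and at 59.8, 54.9 and 51.7 CPM in 1CT-A, where the cell lines just overlap (log2 fold change -0.30, SE 0.10, edgeR adjusted p = 0.023). Its call is lost without 1CT replicate 3 (-0.20), 1CT-A replicate 2 (-0.29) or 1CT-A replicate 3 (-0.25). The core genes NDUFV1, NDUFV2, NDUFS1, NDUFS3 and NDUFS7 are not called and lie between -0.28 and 0.18.

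Among the accessory subunits the largest falls are in NDUFA13 and NDUFA2. NDUFA13, also known as GRIM-19, is at 99.3, 88.9 and 106 CPM in 1CT and at 68.7, 72.6 and 80.4 CPM in 1CT-A (-0.45, SE 0.09, edgeR adjusted p = 0.0012). NDUFA2, a small subunit of the matrix arm, is at 54.3, 53.5 and 53.5 CPM against 39.0, 44.1 and 39.4 CPM (-0.44, SE 0.08, edgeR adjusted p = 8.0e-04). For both genes the cell lines are fully apart, and both calls hold under all 16 settings. The promoter of NDUFA13, from the plus strand of chromosome 19 at chr19:19515975-19516224, is shown because it is the complex I gene with the largest fall, and it holds CCGGAAG at -10, in capitals.
NDUFA13: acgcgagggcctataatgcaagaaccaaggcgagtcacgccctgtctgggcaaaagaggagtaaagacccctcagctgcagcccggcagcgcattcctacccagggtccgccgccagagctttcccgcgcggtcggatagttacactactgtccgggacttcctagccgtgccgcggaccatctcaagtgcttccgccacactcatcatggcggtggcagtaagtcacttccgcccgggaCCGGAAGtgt
In the last 500 bases NDUFA13 overlaps YJEFN3, which has 47 counts over all libraries.

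NDUFB6, an accessory subunit of the membrane arm, is at 31.9, 22.1 and 19.8 CPM in 1CT and at 31.6, 35.3 and 32.9 CPM in 1CT-A. The cell lines overlap, and the call (0.39, SE 0.14, edgeR adjusted p = 0.035) is lost without any 1 of the libraries other than 1CT replicate 1, with values from 0.28 to 0.43. It also overlaps TOPORS-AS1 on the other strand, which has 537 counts over all libraries. NDUFB3, with a fold change of larger size, is not called. It is at 86.7, 83.1 and 35.9 CPM against 94.8, 113 and 94.5 CPM, and 1CT replicate 3 alone is low (0.52, SE 0.22, edgeR adjusted p = 0.065). It is called higher with a replicate block (0.59, edgeR adjusted p = 0.0085), without a filter (0.56), with limma-voom (0.61) and without any 1 of the 1CT libraries (0.72, 0.68 and 0.23).

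Named after their values were seen, NDUFA11 (-0.29), NDUFA1 (-0.21) and NDUFB2 (-0.19) complete the lower genes of complex I. Each has libraries of the cell lines fully apart, and none keeps its call with every library left out in turn. Without 1CT-A replicate 3 the values are -0.27, -0.21 and -0.17. For NDUFA1 the call is also lost without 1CT replicate 1 (-0.18) or 1CT-A replicate 1 (-0.19), and for NDUFB2 without every library other than 1CT replicate 3, with values from -0.21 to -0.17. NDUFA4, a subunit now placed in complex IV, is at 137, 177 and 121 CPM against 116, 134 and 156.5 CPM, with overlap (-0.14, SE 0.13). The 30 complex I genes without a call lie between -0.28 and 0.52.

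In complex III, the cytochrome bc1 complex, 2 of 10 genes are higher and 1 is lower (30% called, beside 51.0% of all genes tested). The higher genes encode nuclear subunits that carry electrons within it. CYC1, cytochrome c1, is at 104, 89.8 and 101 CPM in 1CT and at 122, 122 and 123 CPM in 1CT-A (0.28, SE 0.08, edgeR adjusted p = 0.0091). UQCRFS1, the Rieske iron-sulfur protein, is at 81.4, 85.8 and 80.2 CPM against 95.6, 109 and 102 CPM (0.27, SE 0.08, edgeR adjusted p = 0.010), and its call is lost without 1CT-A replicate 2 (0.23). Neither gene has overlapping libraries. The core proteins UQCRC1 (-0.22) and UQCRC2 (-0.01) are not called, and the 7 complex III genes without a call lie between -0.22 and 0.07.

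UQCRQ, a small accessory subunit, is the gene of complex III that falls. It is at 551, 521 and 625 CPM in 1CT and at 426, 476 and 443 CPM in 1CT-A, without overlap (-0.38, SE 0.08, edgeR adjusted p = 0.0016), and the call holds under all 16 settings. Its promoter, on the plus strand of chromosome 5 at chr5:132866392-132866641, is given for the same reason as that of NDUFA13 and holds CCGGAAG at -54.
UQCRQ: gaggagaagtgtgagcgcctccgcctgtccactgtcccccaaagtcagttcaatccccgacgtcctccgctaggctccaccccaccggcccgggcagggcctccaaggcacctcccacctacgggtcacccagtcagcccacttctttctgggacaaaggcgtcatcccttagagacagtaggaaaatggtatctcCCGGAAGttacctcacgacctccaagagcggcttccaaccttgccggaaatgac
UQCRB, the complex III gene with the most counts, is at 769 ± 20.7 CPM and 778 ± 12.5 CPM (SD, n = 3), and its log2 fold change of -0.02 (SE 0.06) changes sign with the scaling. UQCRHL, a near copy of UQCRH, takes 13.5% of the reads of the pair in 1CT and 14.3% in 1CT-A, and the pseudogene UQCRBP1 takes 17.9% and 17.6% of its pair with UQCRB, so reads of the copies may be divided between them.

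Complex IV, cytochrome c oxidase, holds the one large difference. COX7A1 is the isoform of subunit VIIa known from heart and skeletal muscle, and COX7A2 is the isoform of other tissues. COX7A1 has 266, 240 and 252 counts in 1CT and 29, 34 and 32 counts in 1CT-A. As levels these are 31.5, 29.0 and 32.4 CPM and 2.60, 2.98 and 2.54 CPM, so that every 1CT library is far above every 1CT-A library. The gene is 11.7-fold lower in 1CT-A (log2 fold change -3.55, SE 0.14, edgeR adjusted p = 1.2e-09). Over all alternatives the log2 fold change runs from -3.61 to -3.49.

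COX7A2 is not called. It is at 156.4, 154 and 144 CPM in 1CT and at 135, 154 and 136 CPM in 1CT-A, with overlap (-0.14, SE 0.07, edgeR adjusted p = 0.14, and called lower at -0.19 with upper-quartile factors). As a share of the reads of both isoforms, COX7A1 makes up 16.8%, 15.9% and 18.4% in 1CT and 1.89%, 1.90% and 1.84% in 1CT-A. The mean falls from 16.99% ± 1.27 to 1.88% ± 0.0356 (SD, n = 3), a difference of -15.1 percentage points. The exact two-sided permutation test gives p = 0.1, the smallest that 3 against 3 libraries allow. After Benjamini-Hochberg adjustment it is 0.2, over 6 isoform shares that include those of ATP5G1, ATP5G2 and ATP5G3. COX7A2L, named like the isoforms but known as a factor that joins complexes III and IV, is at 110, 112 and 83.7 CPM against 113, 130 and 130 CPM (0.25, SE 0.10, edgeR adjusted p = 0.058). That value is past the threshold without 1CT replicate 1 (0.31), 1CT replicate 2 (0.32) or 1CT-A replicate 1 (0.32), with library size only (0.29), without a filter (0.30) and with limma-voom (0.26).

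**Figure D2:**
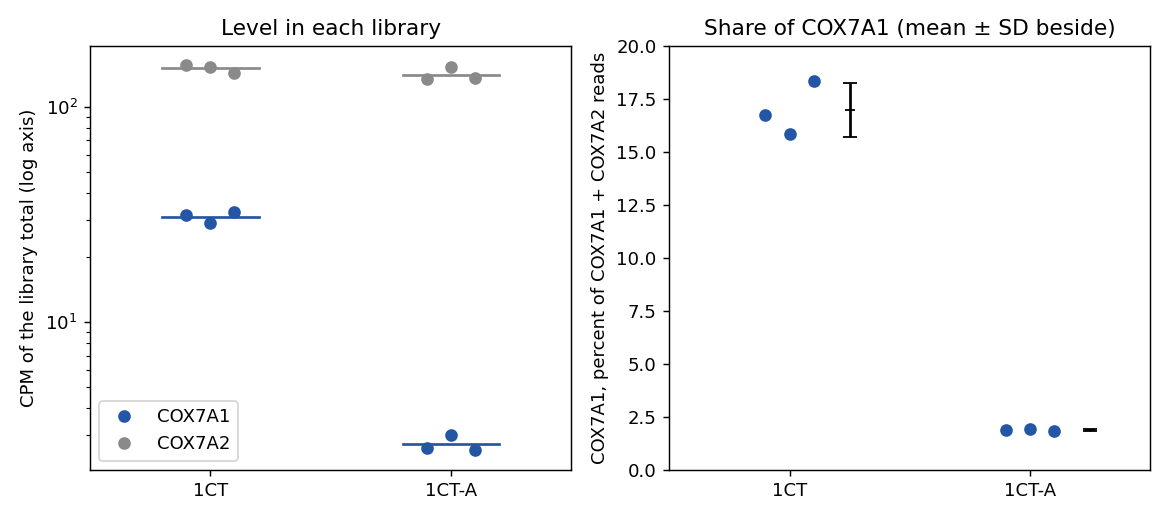
The left panel gives the level of COX7A1 and COX7A2 in each library (CPM, log axis, with a line at the mean), and the right panel gives COX7A1 as a percent of the reads of both, with the mean and SD beside the points. COX7A2 stays between 135 and 156.4 CPM in all 6 libraries, while the share of COX7A1 is 15.9% or more in 1CT and 1.90% or less in 1CT-A.

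The other tissue-specific isoforms of complex IV are at or near 0 in both cell lines. COX4I2, COX6A2 and COX7B2 have no count in any library. A count of 0 allows up to 3 counts per library, which covers counting error only. COX6B2, the testis isoform of COX6B, has 3, 1 and 4 counts in 1CT and 1, 0 and 0 counts in 1CT-A, and COX8C has 1, 0 and 1 against 0, 0 and 1. These 5 genes do not pass the filter and are not tested. Their partners COX4I1, COX6A1, COX6B1, COX7B and COX8A therefore supply nearly all reads of their families, with COX6B1 at 99.7% in 1CT and over 99.9% in 1CT-A.

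Of these partners, COX4I1 and COX6A1 are lower in 1CT-A. COX4I1 is at 309, 303 and 325 CPM in 1CT and at 265, 283 and 275 CPM in 1CT-A (-0.23, SE 0.07, edgeR adjusted p = 0.012). COX6A1 is at 76.9, 71.7 and 82.4 CPM against 59.3, 67.2 and 66.2 CPM (-0.30, SE 0.09, edgeR adjusted p = 0.011). Both are without overlap. Without 1CT-A replicate 1 neither is called (-0.20 and -0.25), and COX4I1 also loses its call without 1CT-A replicate 3 (-0.22). COX6B1 (-0.19, edgeR adjusted p = 0.073), COX7B (0.10) and COX8A (-0.05) are not called, although COX6B1 is called lower with upper-quartile factors (-0.24).

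COX5A, a subunit on the matrix side, is the only complex IV gene called higher. It is at 87.6, 90.1 and 99.9 CPM in 1CT and at 110, 112 and 107 CPM in 1CT-A, without overlap (0.21, SE 0.08, edgeR adjusted p = 0.043). The call is lost without any 1 library other than 1CT replicate 3, with values from 0.17 to 0.23. COX7C, the complex IV gene with the most counts, is at 297 ± 7.46 CPM and 289.6 ± 11.7 CPM (SD, n = 3; -0.08, SE 0.07). Of the 12 complex IV genes tested, 1 is higher and 3 are lower (33.3% called, beside 51.0% of all genes tested). The median log2 fold change is -0.07. The 8 genes tested without a call lie between -0.19 and 0.25.

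Complex V has the most calls in 1 direction, with 7 of 19 genes higher (36.8%) and 1 lower, and a median log2 fold change of 0.12. The share higher is 25.0% of all genes tested, and 31.4% of those that average 10 CPM or more. Of the 19 genes, 18 reach that level. The 7 higher genes include ATP5SL, which is not a subunit. The split of calls is 8 higher and 0 lower with library size only, and 5 and 2 with upper-quartile factors. ATP5A1, the alpha subunit of the catalytic head, is at 202, 211 and 157 CPM in 1CT and at 252, 260 and 243 CPM in 1CT-A (0.37, SE 0.09, edgeR adjusted p = 0.0054). ATP5B, the beta subunit that carries the catalytic sites, is named after its values were seen and is at 221, 239 and 241 CPM against 290.1, 304 and 279 CPM (0.28, SE 0.07, edgeR adjusted p = 0.0046). Neither overlaps. The other subunits of F1, the part of ATP synthase that includes this head, are not called (ATP5C1 0.12, ATP5D -0.20 and ATP5E -0.14). Thus 2 of the 5 genes of F1 are higher, a count too small to set against the 25.0% of all genes. The 11 complex V genes without a call lie between -0.20 and 0.14. ATP5E has a near copy, the pseudogene ATP5EP2, which takes 28.7% of the reads of the pair in 1CT and 29.9% in 1CT-A.

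In the stalk that holds the head in place 2 of 4 genes are higher, again a small count. ATP5F1, subunit b, is at 100.2, 110.1 and 100.02 CPM in 1CT and at 132, 135 and 139 CPM in 1CT-A (0.35, SE 0.07, edgeR adjusted p = 0.0014). ATP5J, coupling factor 6, named after its values were seen, is at 137, 149.6 and 131 CPM against 166, 164 and 169 CPM (0.22, SE 0.07, edgeR adjusted p = 0.020). Libraries are fully apart in both. The call of ATP5J is lost without 1CT replicate 1 (0.21), 1CT-A replicate 1 (0.22) or 1CT-A replicate 3 (0.22). ATP5O (0.14) and ATP5H (-0.11) are not called, and ATP5H overlaps KCTD2 on the other strand, which has 1607 counts.

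The c ring turns as protons pass, and its subunit is encoded by ATP5G1, ATP5G2 and ATP5G3, which give the same mature protein. ATP5G3 is at 798, 795 and 762 CPM in 1CT and at 904, 1002 and 979 CPM in 1CT-A, without overlap (0.25, SE 0.06, edgeR adjusted p = 0.0040). ATP5G1 (-0.05, SE 0.08) and ATP5G2 (0.10, SE 0.07) are not called, although ATP5G2 is called without 1CT replicate 3 (0.16). The share of ATP5G3 in the reads of the family is 51.2% ± 2.23 in 1CT and 54.9% ± 1.58 in 1CT-A (SD, n = 3, exact permutation p = 0.1, 0.2 adjusted over 6 shares). That of ATP5G1 goes from 20.0% ± 1.28 to 17.4% ± 1.24 (exact permutation p = 0.2), and that of ATP5G2 from 28.7% ± 1.02 to 27.7% ± 0.797 (exact permutation p = 0.4).

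The small membrane subunits g and e go in opposite directions. ATP5L, subunit g, is the member with the most counts, at 1505, 1484 and 1564 CPM in 1CT and 1712, 1848 and 1742 CPM in 1CT-A (0.18, SE 0.06, edgeR adjusted p = 0.025). ATP5I, subunit e, is at 232, 220.2 and 268 CPM against 215, 217 and 200.1 CPM (-0.23, SE 0.08, edgeR adjusted p = 0.037). Neither gene overlaps between the cell lines, but both calls depend on single libraries. That of ATP5L is lost without 1CT replicate 1 (0.17), 1CT replicate 2 (0.16), 1CT-A replicate 2 (0.16) or 1CT-A replicate 3 (0.20), and with upper-quartile factors (0.12). That of ATP5I is lost without 1CT replicate 3 (-0.13) or any 1CT-A library (-0.24 to -0.19), and with library size only (-0.19) or no filter (-0.18).

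Several symbols with the ATP5 prefix are not subunits. ATP5SL, known as an assembly factor of complex I, is at 17.2, 16.5 and 16.6 CPM in 1CT and at 19.1, 24.8 and 23.2 CPM in 1CT-A, without overlap (0.38, SE 0.12, edgeR adjusted p = 0.020), and its call is lost without 1CT-A replicate 2 (0.31) or 1CT-A replicate 3 (0.36). ATP5S, with 5.07 ± 1.25 CPM against 5.69 ± 0.804 CPM (SD, n = 3), is not called (0.13, SE 0.22). The read-through symbol ATP5J2-PTCD1 has 1221, 1015 and 1054 counts in 1CT and 1597, 1494 and 1763 in 1CT-A, while PTCD1 alone has 1221, 1016 and 1054 and 1597, 1494 and 1765, so nearly the same reads stand under both names. Leaving out the symbols that are not subunits gives 24 called members, 13 higher and 11 lower.

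The promoters of ATP5J and ATP5I are shown because both are called, in opposite directions, and each window holds a GCGCATGCG. ATP5J lies on the minus strand of chromosome 21, with the 250 bases before its start at chr21:25735055-25735304, and ATP5I on the minus strand of chromosome 4, at chr4:674277-674526.
ATP5J: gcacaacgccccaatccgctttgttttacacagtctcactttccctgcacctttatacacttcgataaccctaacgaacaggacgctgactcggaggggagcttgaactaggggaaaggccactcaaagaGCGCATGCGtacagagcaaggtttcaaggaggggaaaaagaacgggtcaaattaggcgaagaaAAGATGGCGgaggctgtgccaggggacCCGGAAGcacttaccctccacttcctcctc
ATP5I: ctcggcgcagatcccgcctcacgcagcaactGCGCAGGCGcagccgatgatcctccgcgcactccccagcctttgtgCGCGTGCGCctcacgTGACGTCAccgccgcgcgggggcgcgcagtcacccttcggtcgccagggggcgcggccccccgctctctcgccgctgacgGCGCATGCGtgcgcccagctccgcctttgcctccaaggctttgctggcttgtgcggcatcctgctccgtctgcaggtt
ATP5J holds GCGCATGCG at -120, AAGATGGCG at -57 and CCGGAAG at -30. A second start of ATP5J in the table has CCGGAAG at -180 and -8, AAGATGGCG at -207 and no GCGCATGCG in its window. ATP5I holds GCGCANGCG 3 times, at -219 and -78 on the plus strand of the gene and at -173 on the other strand, and the copy at -78 is GCGCATGCG. It also holds TGACGTCA at -158 and, past the printed bases, CCGGAAG at 4 on the other strand.

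Motifs were searched on both strands, from 250 bases before to 50 after each start, for the 69 members with an entry in the promoter table and for all 27305 genes in it. GCGCATGCG, a site type of nuclear respiratory factor 1 (NRF1), is in 11 members (15.9%) against 2.34% of all genes. The wider form GCGCANGCG, which includes it and was added after the sequences were seen, is in 23 members (33.3%) against 9.02%. CCGGAAG, an ETS type bound by GABP, also called nuclear respiratory factor 2, is in 20 members (29.0%) against 12.2%. AAGATGGCG, a YY1 type, is in 9 (13.04%) against 2.14%, and the cAMP response element TGACGTCA is in 5 (7.25%) against 2.25%. GGGCGGG, an SP1 type, is in 21 (30.4%) against 36.7%. These shares describe letters and not bound sites.

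Of the 69 members with a promoter, 10 are called higher, 10 lower, 45 are not called and 4 are not tested. Over all genes tested, 51.0% are called, 25.0% higher and 26.0% lower. Among those that average 10 CPM or more, 54.9% are called. The counts by motif are small beside these shares. Of the 20 members with CCGGAAG, 4 are higher, 6 are lower and 10 are not called. Of the 11 with GCGCATGCG, 1 is higher, 2 are lower and 8 are not called. Of the 23 with GCGCANGCG, 3 are higher, 3 are lower, 16 are not called and 1 is not tested. Of the 9 with AAGATGGCG, 2 are higher and none is lower, of the 21 with GGGCGGG, 3 are higher and 1 is lower, and of the 5 with TGACGTCA, 1 is higher and 2 are lower. The promoters are also rich in CpG, with a median of 22 CpG in the 300 bases for members and 14 for all genes.

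**Figure D3:**
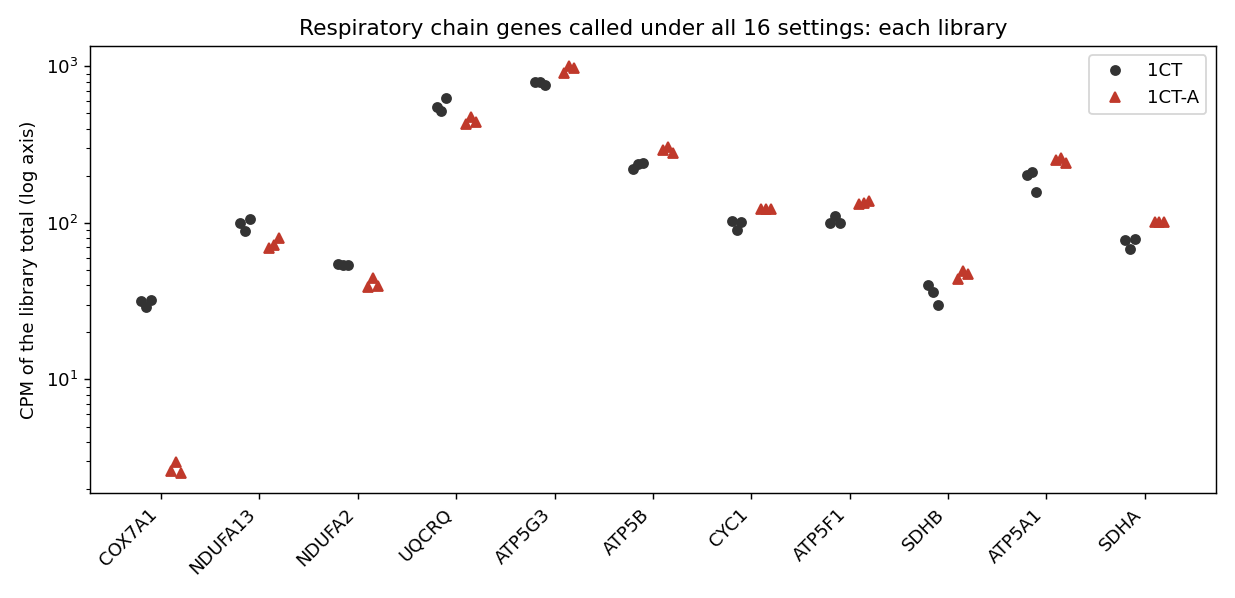
Each point is the level of 1 library (CPM, log axis) for 11 of the 12 members called under all 16 settings, with circles for 1CT and triangles for 1CT-A. COX7A1, NDUFA13, NDUFA2 and UQCRQ are lower in 1CT-A, the other 7 are higher, and the circles and triangles of a gene do not overlap.

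Summed by complex, complexes II and V take more counts in 1CT-A and the others stay close. Complex II sums to 236 ± 14.5 CPM in 1CT and 287 ± 14.5 CPM in 1CT-A (SD, n = 3), a ratio of 1.22. Complex V sums to 5350.3 ± 77.0 CPM and 6040.4 ± 129 CPM, a ratio of 1.13. In both complexes every 1CT-A library is above every 1CT library. The largest terms of the complex V sum are ATP5L (means of 1518 CPM in 1CT and 1767 CPM in 1CT-A) and ATP5G3 (785 and 962 CPM). Complex I, at 4389 ± 111 CPM and 4501 ± 49.1 CPM, has a ratio of 1.03 that falls to just under 1 with TMM scaling. Complexes III and IV have ratios of 0.964 and 0.968, and 0.983 for complex IV without COX7A1. All members together sum to 14234 ± 241 CPM and 14943 ± 294 CPM, a ratio of 1.05.

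**Figure D4:**
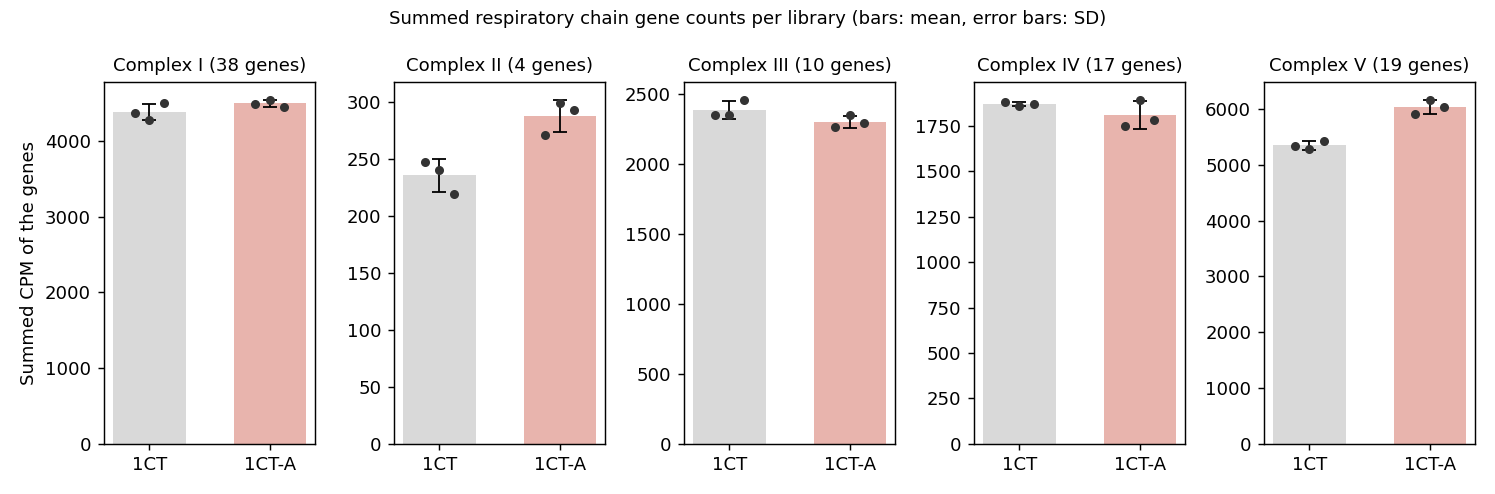
Bars give the mean summed CPM of the genes of each complex (vertical axis from 0, a separate scale for each panel), error bars the SD and points the 3 libraries. The bars of complex II (236 and 287 CPM) and complex V (5350.3 and 6040.4 CPM) differ by more than the spread of the libraries, while the points of complex IV overlap between the cell lines.

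Genes around the respiratory chain, those that build the complexes, feed them or express the mitochondrial genome, are described from further lists. The lists were assembled from known roles, and the counts and medians describe them without a test. They are read beside the 25.0% of all genes tested that are higher, the 26.0% that are lower and the 51.0% that are called. Of 18 complex I assembly factors 7 are higher and none is lower (38.9% called), with a median log2 fold change of 0.24, led by NDUFAF4 (0.53), ECSIT (0.52) and TMEM186 (0.50). Of 10 factors for complexes II and III, 2 are higher, UQCC3 (0.45) and BCS1L (0.34), and TTC19 is lower (-0.20), which is 30% called. Of 25 complex IV assembly factors 11 are higher and 3 lower (56% called), with a median of 0.21. COA6, which helps to load copper, goes from 10.6 ± 2.82 CPM to 27.0 ± 3.79 CPM (SD, n = 3; 1.30, SE 0.17, edgeR adjusted p = 3.6e-05). COA7 (0.89) and HIGD1A (0.61) are also higher, and HIGD2A (-0.58), COX11 (-0.47) and COX14 (-0.43) are lower.

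For complex V, 3 of 5 assembly factors and regulators tested are higher and 1 is lower. Those higher are TMEM242 (0.56), TMEM70 (0.38) and ATPAF1 (0.33), while ATPIF1, the inhibitor of ATP hydrolysis, is lower (-0.20). Among 14 genes of the mobile carriers and coenzyme Q synthesis, 5 are higher and 1 is lower (42.9% called), with a median of 0.18. PDSS1, COQ3 and COQ2, enzymes of coenzyme Q synthesis, have log2 fold changes of 0.88, 0.53 and 0.49, and COQ4 has -0.37. Of 7 carriers and pores that were tested, SLC25A5 (0.38) and VDAC3 (0.28) are higher. SLC25A4, the ADP/ATP carrier known from heart and muscle, is lower, at 14.8, 15.6 and 11.04 CPM in 1CT and 4.84, 5.62 and 5.00 CPM in 1CT-A (-1.46, SE 0.17, edgeR adjusted p = 1.2e-05), without overlap.

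For the factors that act on the mitochondrial genome, the share of all genes tested that is higher is 25.0%, and 31.4% among genes that average 10 CPM or more. Of 24 genes for mitochondrial DNA expression and upkeep, 14 are higher and none is lower (58.3% called), with a median of 0.29. TFAM, which packs mitochondrial DNA and starts its transcription, is at 88.3, 86.3 and 80.2 CPM in 1CT and 165, 158 and 159.8 CPM in 1CT-A (0.88, SE 0.07, edgeR adjusted p = 5.7e-07), without overlap. FASTKD3 (0.97, SE 0.33) and TFB2M (0.73, SE 0.22) are also higher. In 1CT, FASTKD3 has only 28, 16 and 7 counts and TFB2M has 85, 73 and 32, with replicate 3 the lowest for both. Of 77 mitochondrial ribosomal protein genes 45 are higher and 1 is lower (59.7% called), with a median of 0.29. The largest rises are those of MRPL39 (0.71), MRPL3 (0.71) and MRPL34 (0.69), and MRPL41 falls (-0.31). The 13 subunits encoded by mitochondrial DNA are not analysed here.

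Of 19 transcription factors and coactivators of respiratory genes tested, 10 are higher and 3 lower (68.4% called), with a median of 0.33. NFE2L2 (1.23), ATF1 (1.14) and GABPB1 (0.94), a subunit of GABP, lead the higher genes, and KLF4 (-1.49), MEF2A (-0.45) and HIF1A (-0.23) are the lower ones. Named after their values were seen because their motifs were searched, NRF1 goes from 6.68 ± 0.484 CPM to 11.01 ± 0.675 CPM (0.68, SE 0.15), GABPA from 14.6 ± 5.92 CPM to 23.3 ± 5.87 CPM (0.63, SE 0.24) and YY1 from 47.1 ± 1.39 CPM to 72.6 ± 1.73 CPM (0.59, SE 0.08), all 3 called higher. The call of GABPA is close to the threshold (edgeR adjusted p = 0.045). Its libraries are at 18.8, 17.1 and 7.83 CPM in 1CT and at 19.2, 30.0 and 20.7 CPM in 1CT-A. For the other motifs searched, SP1 is called higher (0.77, SE 0.11). The cAMP response element is bound by CREB1, which is not called (0.15, SE 0.12, edgeR adjusted p = 0.29), and by ATF1, called higher (1.14). Of 28 genes of the citric acid cycle and pyruvate dehydrogenase, 5 are higher and 6 lower (39.3% called), with a median of -0.03. PDHX (0.66), DLAT (0.59) and SUCLG2 (0.36) are higher. Of the kinases that switch pyruvate dehydrogenase off, PDK3 (-4.23), PDK4 (-1.79) and PDK2 (-1.46) are lower, with means in 1CT of 2.31, 2.995 and 2.69 CPM. PDK1, the kinase of this kind with the most counts, is not called, at 11.8 ± 1.34 CPM and 13.95 ± 0.447 CPM (SD, n = 3; 0.20, SE 0.13).

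**Figure D5:**
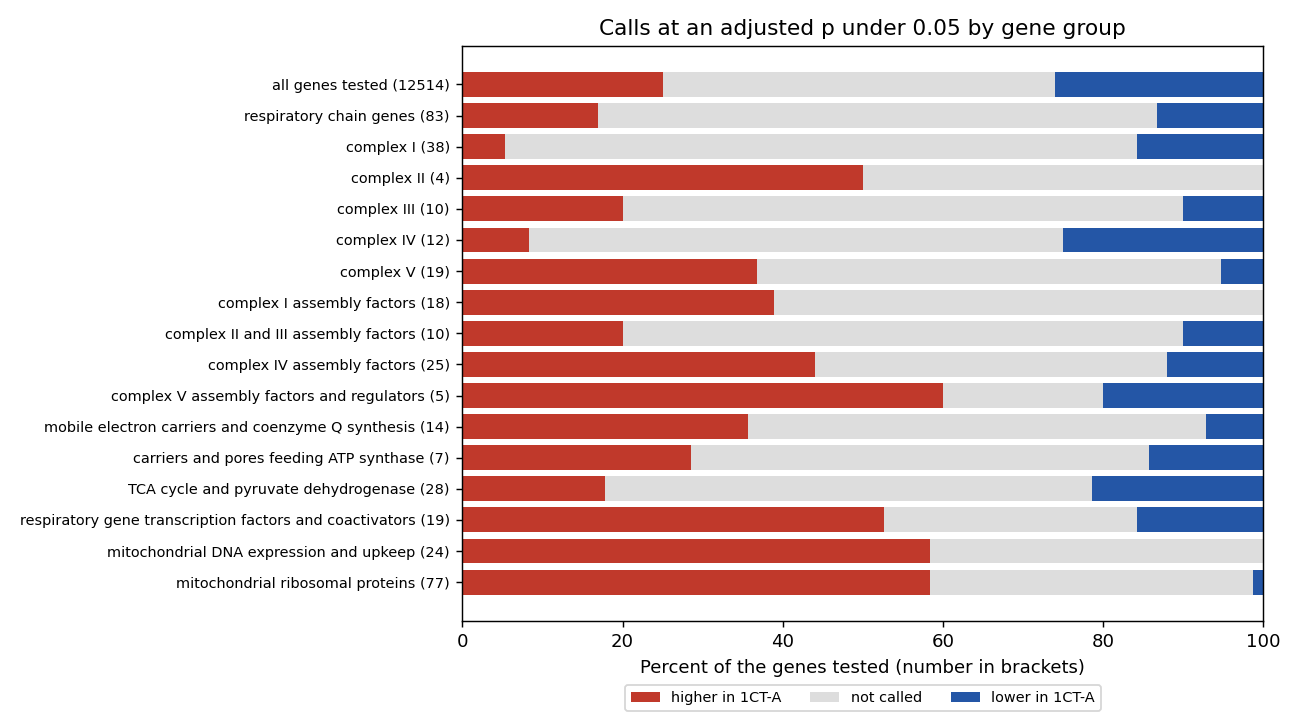
Each bar splits the genes tested of 1 group (number in brackets) into those called higher in 1CT-A, not called and called lower, as a percent. Subunits of complex I have the smallest percent in red (2 of 38), while the bars of mitochondrial DNA expression (14 of 24) and of mitochondrial ribosomal proteins (45 of 77) are mostly red.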

How the data were processed

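RNA of 3 libraries of 1CT and 3 of 1CT-A is measured with QuantSeq 3′ libraries. The authors deposited 1 file of raw counts per library, with 25737 entries for 24462 symbols, and repeated symbols are summed. Per the labels RNA is taken up in Trizol, while the study's methods name RNA-spin and a cDNA microarray service. The submitters' processing notes name Bowtie2, edgeR and hg19. The counting tool, annotation and strand setting are not given in the sources used here, so overlapping genes are uncertain.

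The fit uses edgeR 4.0.16 in R 4.3.3, with TMM factors from 0.975 to 1.02, filterByExpr at its minimum count of 10, a quasi-likelihood test between the cell lines and Benjamini-Hochberg adjustment over 12514 genes. The SE is the log2 fold change divided by the root of the F statistic. The code is tested on simulated data. CPM are of the library total. The precision follows from the totals, and intervals and floors cover counting error and, in the fit, the spread between libraries. Replicates of a cell line differ by more than counting noise (chi-square per degree of freedom from 3.11 to 9.00). The highest values, 7.54 and 9.00, are those of 1CT replicate 3 against 1CT replicates 1 and 2. All other pairs lie between 3.11 and 4.56.

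Members and lists were chosen with earlier results of these data known. Named are, in each complex, the 3 members called in each direction with the largest fold change, the member with the most counts, members of isoform families, members that fail the filter and members that are not subunits, and the same 3 per direction from each other list. Alternatives are other scalings and filters, DESeq2 1.42.0, limma-voom (limma 3.58.1), a replicate block, other thresholds and each library left out. All 88 symbols match RefSeq, and promoters come from RefSeq on GRCh38.p14. Coordinates of the genes on hg19 are not used here. In complex I, 1 gene is part of the counts and sums and is not reported here.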

Additional observations from a re-analysis of the deposited data

How the results depend on the processing

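The calls shift with scaling and with the filter. With upper-quartile factors 19 members are lower, and the median log2 fold change is -0.075 for members and -0.063 over all genes tested. Without a filter 7 members are lower. The medians are then 0.025 for members and -0.099 over all genes with any count. With an adjusted p under 0.01, 11 members are called, 7 higher and 4 lower. With 2-fold and an unadjusted p under 0.01, 1 is called, 0 higher and 1 lower, of 1676 among all genes, and APC at -0.58 is under that fold. With TMM scaling the log2 ratios of the summed complexes are -0.0024 (I), -0.092 (III), 0.14 (V) and 0.031 (all members), against 0.04, -0.05, 0.18 and 0.07.

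With each library left out, 15 to 27 members are called, 9 to 17 higher and 6 to 13 lower. The 15 are without 1CT-A replicate 3 (9 higher, 6 lower), the 6 lower also without 1CT-A replicate 1, and the 9 higher also without 1CT-A replicate 2. Signs reverse only for members that are not called. UQCRB is at 0.018 with library size only and at 0.025 without a filter, and ATP5J2-PTCD1 is at -0.053 with upper-quartile factors and at -0.013 with 10 counts in every library. With single libraries left out, ATP5G1 lies between -0.11 and 0.028 (above 0 without 1CT replicate 3), ATP5J2-PTCD1 between -0.058 and 0.057 (below 0 without 1CT replicate 2 or 1CT-A replicate 1), ATP5S between -0.064 and 0.25 and NDUFA4 between -0.25 and 0.031 (both turn without 1CT replicate 2). The cause was not tested.

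Whether numbers 1 to 3 pair the libraries is not given in the sources used here. Deviations from the group mean correlate at -0.156, 0.216 and -0.136 between same-numbered libraries over 8224 genes. Between differently numbered ones they run from -0.286 (1CT replicate 2, 1CT-A replicate 1) to 0.339 (1CT replicate 3, 1CT-A replicate 1). Deviations from a mean of 3 libraries depend on each other, so these values cannot decide it. With a replicate block 22 members are called, 13 higher and 9 lower, of which 12 and 9 are also called without it, and 6091 of all genes. ATP5I (-0.22), ATP5L (0.18), COX5A (0.21) and NDUFB2 (-0.19) are then not called, and NDUFB3 (0.59) is. Over all settings, 19 members without a call gain one under at least 1.

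Of the values of single named members under the alternatives, 476 keep their direction and side of the threshold, 67 lose the call, 9 gain it and 9 reverse. The depth of the libraries leaves COX6B2 and COX8C too low for a test, and 9 members have an interval that reaches past 1.5-fold.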

Other observations

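By position, 12 of the members tested lie on chromosome 19, more than on any other chromosome. Their median log2 fold change is -0.19, and the median of all 844 genes tested there is -0.11. Of the 12 members, 2 are called higher and 3 lower, beside 51.0% of all genes tested that are called. Placement is by RefSeq on GRCh38.p14, and the group was formed after values were known.

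NDUFA4L2, a relative of NDUFA4 known from cells short of oxygen, is not a member. It has 39, 29 and 38 counts in 1CT and 66, 42 and 73 in 1CT-A (0.21, SE 0.24, not called), and it makes up 3.02% ± 0.989 of the reads of the pair in 1CT and 3.70% ± 1.09 in 1CT-A (SD, n = 3; exact permutation p = 0.5).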
